A study of Drosophila melanogaster with 8 samples.

Results

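Promoter regions bound by AGO2 in mock-treated Drosophila Kc167 cells, and without a called AGO2 peak after the transcription inhibitor triptolide, are described here. Peaks of the 2 mock lists were merged where they overlapped, and an interval was kept where it held a peak of both lists, which gave 928 mock consensus regions. Of these, 919 lay on the chromosome arms 2L, 2R, 3L, 3R and X, and 745 of them overlapped the 1500 bp on either side of a transcription start site (TSS). The members were chosen by the presence of mock peaks and the absence of triptolide peaks, and 476 of the 745 promoter regions (63.9%) overlapped no peak of either triptolide list. The other promoter regions overlapped a peak in 1 triptolide list (155 regions) or in both (114 regions). These counts follow from the rule that chose the members and are given without a test. They depend on mock replicate 1, the shorter mock list: without it, when the peaks of mock replicate 2 alone made the regions, 1047 regions met the rule.

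Kc167 is a cell line derived from Drosophila embryos and is labelled as female. Chromatin was immunoprecipitated with the monoclonal AGO2 antibody 9D6 from mock-treated cells and from cells treated with 10 µM triptolide for 60 min. Each treatment had 2 replicates, and the labels do not say whether they were separate cultures. The lists of mock replicates 1 and 2 held 1055 and 1919 peaks and those of triptolide replicates 1 and 2 held 5594 and 5873, so the absence of a peak was scored against the longer lists. Peak lists give no read depth, no signal where no peak was called and no expression values, so a region without a triptolide peak is not shown to be free of AGO2.

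Argonaute2 is the nuclease that carries small interfering RNAs in the cytoplasm of Drosophila cells, and it is also found on chromatin at active promoters. Triptolide binds the XPB subunit of the general transcription factor TFIIH and blocks transcription initiation. Many Drosophila promoters are bound by GAGA factor (GAF), the product of Trl, which recognises GA repeats and helps to keep promoters free of nucleosomes. RNA polymerase II (Pol II) often pauses just downstream of the TSS at such promoters, in particular at genes controlled in development. Other promoters, mostly of housekeeping genes, carry elements such as the DNA replication-related element (DRE), and pairs of them are often arranged head to head.

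Promoter sequences of 5 members are shown because they carry the feature that most members shared, the short GAF motif GAGAG, which on the opposite strand reads CTCTC. Sequences are from the RefSeq copy of Release 6 (dm6), each from 250 bases before to 19 bases after the first base of the transcript, printed 5′ to 3′ along the gene, with the motif on either strand in capitals. The first 4 belong to the members with the strongest mock peaks, at the RNA-binding protein genes shep (chr3L:5184778-5185047, minus strand), Syp (chr3R:20778645-20778914, plus strand) and cpo (chr3R:17943856-17944125, plus strand) and at fng (chr3L:20949493-20949762, minus strand), which encodes a glycosyltransferase that modifies Notch. Traf4 (chr2L:4371740-4372009, plus strand), an adaptor of JNK signalling, is shown as the example locus of the study.
shep: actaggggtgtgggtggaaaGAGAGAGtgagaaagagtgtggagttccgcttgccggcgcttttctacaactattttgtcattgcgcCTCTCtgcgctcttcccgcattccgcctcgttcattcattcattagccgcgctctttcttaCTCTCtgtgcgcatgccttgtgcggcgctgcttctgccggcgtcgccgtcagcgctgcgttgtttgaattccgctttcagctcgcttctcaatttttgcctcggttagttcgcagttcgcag
Syp: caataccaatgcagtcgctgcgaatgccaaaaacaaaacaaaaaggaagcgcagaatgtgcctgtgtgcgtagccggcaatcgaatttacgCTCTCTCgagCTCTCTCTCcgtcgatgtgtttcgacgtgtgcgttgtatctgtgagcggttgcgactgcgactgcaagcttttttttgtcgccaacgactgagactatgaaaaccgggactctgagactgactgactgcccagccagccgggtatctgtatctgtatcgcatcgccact
cpo: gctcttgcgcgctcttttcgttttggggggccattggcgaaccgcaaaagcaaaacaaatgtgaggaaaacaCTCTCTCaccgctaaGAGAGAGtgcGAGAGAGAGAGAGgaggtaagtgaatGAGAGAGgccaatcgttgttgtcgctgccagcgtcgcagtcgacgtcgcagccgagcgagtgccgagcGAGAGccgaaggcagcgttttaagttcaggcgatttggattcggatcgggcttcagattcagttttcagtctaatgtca
fng: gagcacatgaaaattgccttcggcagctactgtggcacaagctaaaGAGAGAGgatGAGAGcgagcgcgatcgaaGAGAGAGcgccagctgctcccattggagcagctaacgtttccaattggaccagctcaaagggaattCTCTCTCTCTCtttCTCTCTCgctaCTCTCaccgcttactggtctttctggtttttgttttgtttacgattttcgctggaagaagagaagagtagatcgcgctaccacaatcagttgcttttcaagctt
Traf4: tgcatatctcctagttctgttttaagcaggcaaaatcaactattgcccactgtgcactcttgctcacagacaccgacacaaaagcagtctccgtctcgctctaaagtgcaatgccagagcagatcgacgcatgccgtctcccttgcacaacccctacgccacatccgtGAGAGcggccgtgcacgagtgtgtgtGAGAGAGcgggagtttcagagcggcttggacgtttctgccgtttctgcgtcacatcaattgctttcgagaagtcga

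The stretches of cpo and fng each held 12 overlapping or separate matches, and those of Syp, shep and Traf4 held 5, 4 and 3. The AGO2 summits lay upstream of the TSS in each of them, 148 bp at shep, 222 bp at Syp, 150 bp at cpo, 182 bp at fng and 84 bp at Traf4, and thus within the printed stretch.

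Mock enrichment varied several-fold among the members. Fold enrichment over the local background ranged from 2.29 to 16.1 in mock replicate 1, with a median of 4.77, and from 1.95 to 18.7 in mock replicate 2, with a median of 6.23. The 2 replicates ranked the members in a related but not identical order (Pearson's r = 0.46 and Spearman's rho = 0.42 for fold over 476 regions, given as a description). To put the lists on one scale, each peak was given its percentile by q-value in its own list, and the mean of both mock percentiles was used to rank regions. The median of this mean percentile was 58.3 for the members, 80.4 for promoter regions with a peak in 1 triptolide list and 87.6 for those with a peak in both.

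**Figure D1:**
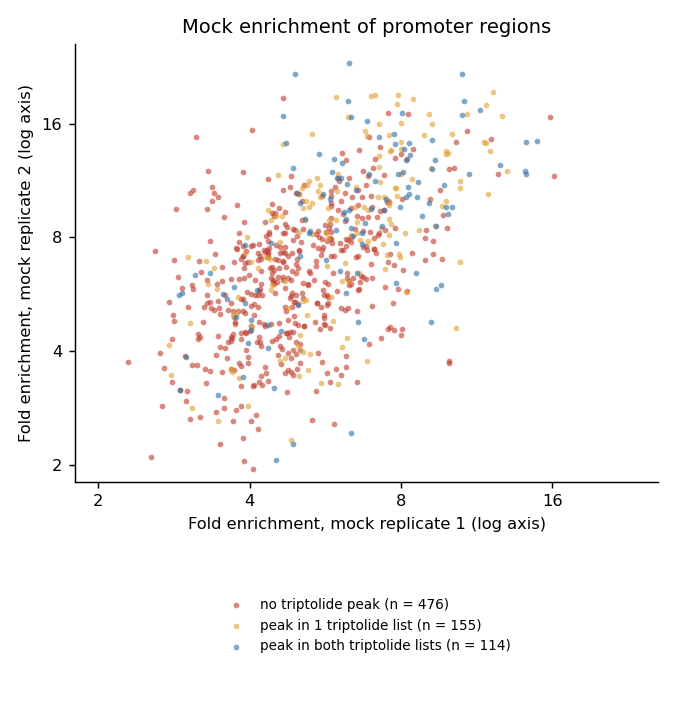
Fold enrichment of each promoter region in mock replicate 1 (x axis) and mock replicate 2 (y axis), both on log axes, with 1 point per region. The 476 regions without a triptolide peak had median values of 4.77 and 6.23 in mock replicates 1 and 2. The 114 regions with a peak in both triptolide lists had medians of 6.39 and 9.48, and the points of both groups overlap.

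Regions with the strongest mock peaks mostly kept a triptolide peak. When the 745 promoter regions were divided into 4 groups of nearly equal size by mean percentile, 77.4%, 82.3% and 71.0% of the lower 3 groups had no triptolide peak, against 25.1% of the highest (95% Wilson interval 19.5 to 31.8%, n = 187). By GC content of the region the share was 78.5% in the lowest group, 76.3% and 58.6% in the middle groups and 42.2% in the highest. Wilson intervals here cover counting error only, since regions are not replicates of a treatment. The median GC content of the 200 bases around the summit was 52.5% in members, 55.5% and 58.2% in regions with a peak in 1 and in both triptolide lists, and 61.0% in the 1510 promoter regions of both triptolide lists that had no mock peak. The part of GC content and mock rank in the absence of triptolide peaks was not tested.

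The 10 members of highest mean percentile were nearest to shep, Syp, cpo, fng, sima, Jupiter, spri, wech, jvl and Dhit. At shep (FBgn0052423, chr3L:5184605-5185306) fold enrichment was 8.45 and 13.7 in mock replicates 1 and 2. At Syp (FBgn0038826, chr3R:20778207-20778982), a relative of the hnRNP family, it was 16.1 and 11.6, and at cpo (chr3R:17943676-17944281) it was 10.2 and 12.2. These 3 summits lay in introns of longer transcripts, just upstream of internal TSSs. Another promoter region of Syp, chr3R:20782479-20783218, overlapped peaks of both triptolide lists and is not a member. At fng (chr3L:20949334-20950325) fold enrichment was 8.25 and 17.0, and the summit lay outside annotated genes, upstream of the first TSS of the gene.

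The region at sima (chr3R:30099143-30099865), which encodes the hypoxia-inducible factor subunit HIF-1α, had fold values of 10.3 and 14.3, and that at Jupiter (chr3R:11604685-11605156), a microtubule-associated protein, had 12.5 and 11.8. Regions at spri, a Ras-binding protein, and at wech, a TRIM-NHL protein that links integrins to the cytoskeleton, had 5.84 and 7.74, and 8.23 and 12.9. The remaining 2 were jvl, a microtubule-associated protein of bristles, with 10.8 and 15.3, and Dhit with 8.41 and 7.26. Mock replicate 2 was the higher of the pair at 7 of the 10 and replicate 1 at Syp, Jupiter and Dhit.

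AGO2 summits of the members lay close to TSSs and mostly on the upstream side. The region summit, taken as the midpoint of the highest peak of each mock list, was within 250 bp of the nearest TSS in 293 of 476 members (61.6%, Wilson interval 57.1 to 65.8%). It lay upstream of that TSS in 336 members (70.6%, 66.3 to 74.5%) and downstream in 140 (29.4%). The median position was 76 bp upstream, with quartiles 185 bp upstream and 59 bp downstream. A single stretch from 150 to 51 bp upstream held 28.8% of all summits, and the stretch from the TSS to 50 bp downstream held 3.78%.

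**Figure D2:**
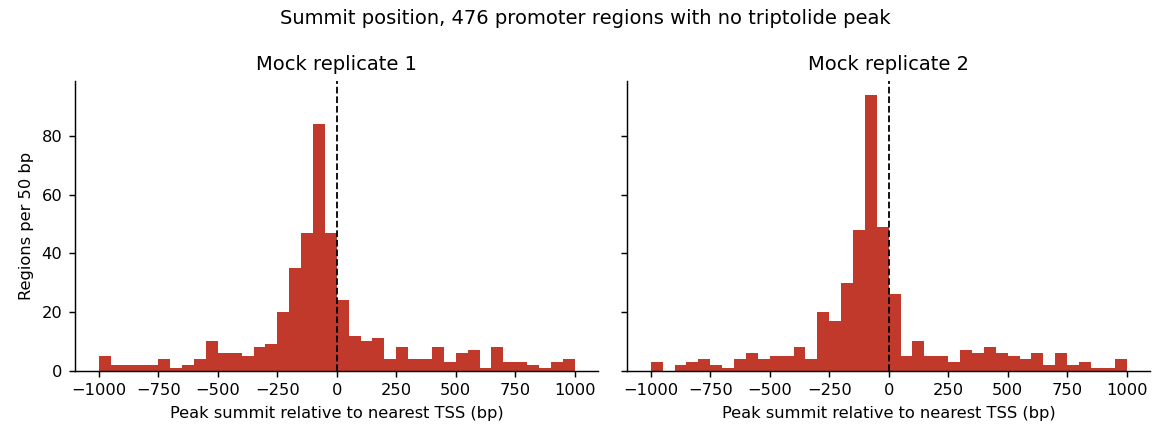
Number of member regions per 50 bp (y axis) by the position of the peak summit relative to the nearest TSS in bp (x axis, negative values upstream), for mock replicate 1 and mock replicate 2. In both replicates the highest bar lies between 100 and 51 bp upstream of the TSS, and few summits fall just downstream of it.

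The upstream position was a feature of the summits close to the TSS. Among the 293 members within 250 bp, 82.6% were upstream (77.8 to 86.5%), whereas 48.6% of the 183 members farther away were downstream (41.5 to 55.8%). The replicates placed the summits alike: both summits were upstream in 316 members and both downstream in 132, and they fell on different sides of the TSS in 28 members (5.88%). The median distance between the 2 mock summits was 23.5 bp. Promoter regions that kept a peak showed similar shares, with 72.9% upstream (65.4 to 79.3%) among those with a peak in 1 triptolide list and 67.5% (58.5 to 75.4%) among those with a peak in both.

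Most summits fell in non-coding sequence. By annotation, 47.3% of member summits were in introns, 29.0% outside genes, 22.5% in untranslated or non-coding exons and 1.26% in coding sequence (6 of 476). The interval of the coding share in members was 0.579 to 2.72%. The coding share was 4.52% in regions with a peak in 1 triptolide list and 13.2% (8.14 to 20.6%) in those with a peak in both. Triptolide peaks themselves set these groups, and the difference was not tested. Many of the promoters were internal to a gene: the nearest TSS was the first TSS of its gene in 52.7% of members (48.2 to 57.2%), against 75.8% of all annotated TSSs. Internal promoters were common as well among regions with a peak in 1 or in both triptolide lists.

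Single promoters prevailed among the members. A TSS was called divergent where a TSS on the opposite strand lay within 1000 bp upstream, pointing away from it. This held for 67 of 476 members (14.1%, 11.2 to 17.5%), against 7436 of all 23401 TSSs (31.8%) and 34.4% of TSSs of protein-coding genes. The shares among regions with a peak in 1 or in both triptolide lists were 16.1% and 13.2%. With a limit of 500 bp, 7.35% of members and 22.4% of all TSSs were divergent, and with protein-coding partners only, 11.1% and 28.3%.

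Summits of divergent members were mostly downstream. They lay downstream of the nearest TSS in 43 of 67 divergent members (64.2%, 52.2 to 74.6%), against 97 of 409 single members (23.7%, 19.9 to 28.1%). Part of this is set by the definition, since a summit far upstream of a divergent TSS comes to lie nearer to the partner, and all 32 divergent members with a summit over 250 bp away were downstream. Within 250 bp, 24 of 35 divergent members were upstream (68.6%, 52.0 to 81.4%), against 84.5% of 258 single members (79.6 to 88.4%), and these intervals overlapped.

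The divergent members of highest rank showed both arrangements. The summit at jvl (chr3R:14749002-14749633) lay 124 bp upstream of its TSS, and the partner TSS of smp-30 was 576 bp away. The region chr2R:21606779-21607296 lay 73 bp upstream of a CG10433 TSS, whose partner was the antisense RNA asRNA:CR43243 at 730 bp, with fold values of 7.89 and 5.85. At chr2R:12589016-12590028, with fold values of 7.10 and 12.9, the summit was 61 bp upstream of lncRNA:CR30055, and the partner at 615 bp was Sin3A, the scaffold of a histone deacetylase corepressor. The other two lay downstream, by 1832 bp in an intron of CG3726 (partner Shmt, serine hydroxymethyltransferase, fold 6.19 and 10.5) and by 589 bp in an exon of the autophagy kinase gene Atg1 (partner Sap130, fold 7.40 and 9.45).

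The GAF motif was the most frequent promoter element at the members. The 476 members had 456 distinct nearest TSSs, and 366 of these promoters (80.3%, 76.4 to 83.7%) held GAGAG on either strand in the 300 bases from 250 before to 50 after the TSS, against 32.4% of all 23401 TSSs. The median number of matches was 3 in member promoters and 0 in all promoters, and 52.6% against 7.46% had 3 or more. Member promoters were richer in GC, with a median of 48.0% against 39.3%. Among all promoters whose GC content lay between the quartiles of the members, a comparison added after the data were seen, 44.8% held the motif.

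The motif was most frequent at the AGO2 summit. Within 100 bp of the summit GAGAG was present in 432 of 476 members (90.8%, 87.8 to 93.0%), and in 29.4% and 31.3% of stretches of the same length whose near end was 300 bp away on either side. It was present at the summit in 91.3% of the 183 members whose summit was over 250 bp from a TSS, although 63.1% of their 168 promoters held it. The share was 96.6% in the 238 members of higher mean percentile (93.5 to 98.3%) and 84.9% in the 238 of lower (79.8 to 88.9%). Using the summit of mock replicate 1 or 2 alone gave 89.5% and 91.6%.

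**Figure D3:**
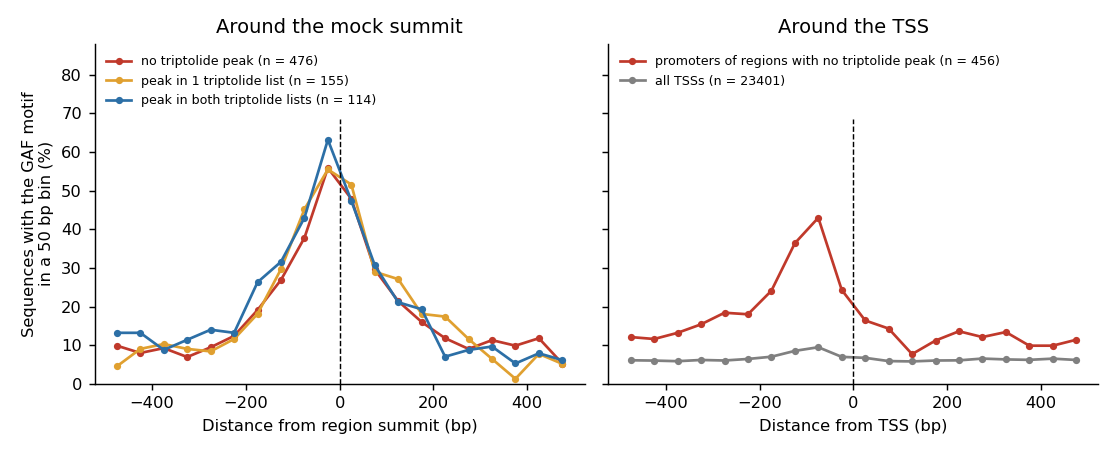
Share of sequences with the GAF motif on either strand in 50 bp bins (y axis, percent) by distance in bp from the region summit (left) and from the TSS (right, negative values upstream). In members the share reached 55.9% just before the summit, and around the TSS it reached 43.0% between 100 and 51 bp upstream, against 9.47% at all TSSs.

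Similar shares were found in the other mock promoter regions. GAGAG was present within 100 bp of the summit in 89.0% of regions with a peak in 1 triptolide list (83.1 to 93.0%) and in 91.2% of those with a peak in both (84.6 to 95.2%). In the 1510 promoter regions found in both triptolide lists only, it was present in 320 (21.2%, 19.2 to 23.3%). The repeat AGCAGCAG was present in 5.46% of members (3.75 to 7.88%), 5.81% of regions with a peak in 1 triptolide list, 19.3% of regions with a peak in both (13.1 to 27.5%) and 17.9% of triptolide-only regions (16.0 to 19.9%).

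Other core elements were searched as exact letters on both strands in the same 300 bases. The TATA box TATAAA was found in 25.0% of the 456 member promoters, 41.4% of all promoters and 26.2% of those of like GC content. The initiator core TCAGT was found in 56.4%, 51.3% and 55.7%, and CGGACG, a core shared by the pause button and the downstream promoter element, in 13.2% (10.4 to 16.6%), 6.41% and 9.40%. The E-box CAGCTG was found in 17.8%, 16.7% and 19.7%, and the repeat CACACACA in 18.6% (15.3 to 22.5%), 5.86% and 10.0%. CGGACG was about as frequent in promoters of regions with a peak in 1 or in both triptolide lists, so it is not particular to the members. CACACACA was about as frequent in promoters of regions with a peak in 1 triptolide list. In those with a peak in both it was less frequent, near the share at like GC content, and the difference was not tested. Matches of different words were counted separately where they overlapped, and a match of letters does not show a bound site.

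Elements of housekeeping promoters were rare at the members. The DRE TATCGATA was found in 6 of 456 member promoters (1.32%, 0.604 to 2.84%), in 6.79% of all promoters and in 2.89% of those of like GC content. Of these 6, 5 were among the 67 divergent promoters (7.46%) and 1 among the 389 single ones (0.257%). None of the 288 promoters with a summit within 250 bp held it, with a Wilson upper limit of 1.32%. In promoters of regions with a peak in 1 or in both triptolide lists the DRE was also less frequent than in all promoters. Among those with a peak in both it was found at osa, kibra, spin and mahe, a larger share than in members. The core of Motif 1, GGTCACAC, was found in 2.41% of member promoters, 5.68% of all and 3.16% of those of like GC content. In regions with a peak in both triptolide lists its share was near that of all promoters.

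The 476 members were nearest to 439 genes, 2.43% of the 18046 annotated genes on the arms. Of these genes 404 were protein-coding, 2.91% of the 13865 such genes, 34 were non-coding RNAs and 1 was a tRNA. Most genes had 1 member (398 genes) and 33 had 2. Counting every gene with a TSS within 1500 bp of a member gave 613 genes. The members were spread over the arms much as TSSs are, with 16.6% on 2L, 21.2% on 2R, 18.7% on 3L, 23.7% on 3R and 19.7% on X, against 19.6%, 20.8%, 19.4%, 23.4% and 16.7% of all TSSs.

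Genes with members were long. Their median length was 12423 bp, against 2156 bp for all protein-coding genes, and 60.1% were over 10 kb, against 14.0%. They had a median of 2 distinct TSSs, against 1. Of protein-coding genes up to 2 kb 0.230% were nearest to a member, of those from 2 to 10 kb 2.70%, from 10 to 50 kb 11.3% and over 50 kb 19.0%. Genes nearest to regions that kept a peak were long as well, with medians of 15101 bp for a peak in 1 triptolide list and 11801 bp for both.

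**Figure D4:**
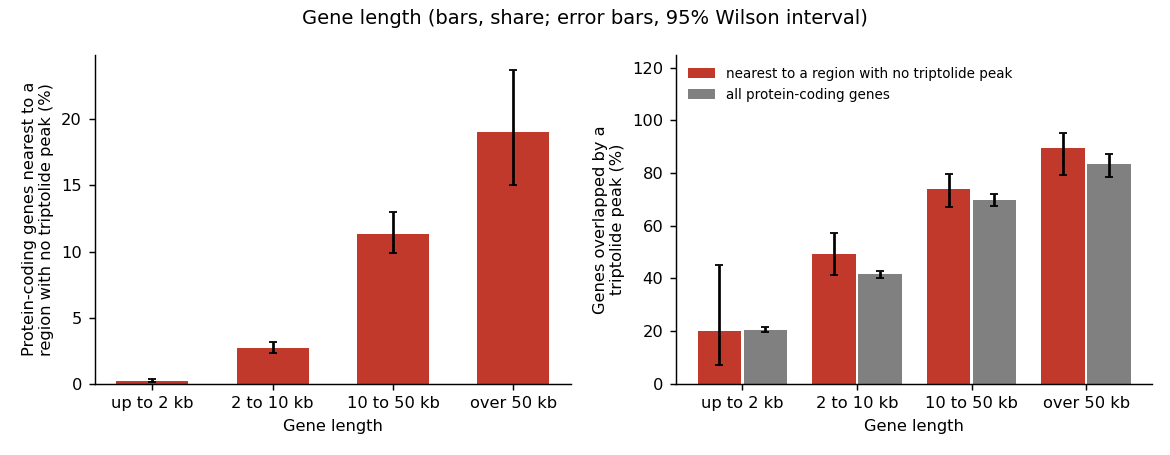
Left, share of protein-coding genes nearest to a member (y axis, percent) by gene length. Right, share of genes overlapped anywhere by a triptolide peak, for genes nearest to a member and for all protein-coding genes of the same length, with 95% Wilson intervals as error bars. The left share rises from 0.230% to 19.0% with length, and on the right the intervals of both groups overlap in each length class.

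Triptolide peaks elsewhere in these genes were counted as well. A peak of either triptolide list overlapped 65.3% of the protein-coding genes nearest to a member, against 35.9% of all protein-coding genes. Within length classes the shares were closer, at 20.0% and 20.5% up to 2 kb, 49.3% and 41.6% from 2 to 10 kb, 74.1% and 69.7% from 10 to 50 kb and 89.7% and 83.3% above, which is near the background for genes of that length. A further promoter region with a peak in 1 triptolide list was held by 22 of the 439 genes, and 1 with a peak in both by 17.

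Gene lists were compared by the share of their genes nearest to a member, read against the 2.91% of all protein-coding genes. The lists were drawn up with earlier results of these data known, and 2 of them, insulin signalling and homeodomain factors, after the members had been seen, so their counts are descriptions. In the highest of 17 lists, 12 of 27 ecdysone response genes (44.4%, 27.6 to 62.7%) were nearest to a member. RNA-binding protein genes followed with 12 of 33 (36.4%, 22.2 to 53.4%), Dpp and activin signalling with 7 of 22 (31.8%) and BTB, GAF and insulator factors with 7 of 25 (28.0%). Genes of each of these lists also lay near promoter regions that kept a peak. Regions with a peak in 1 and in both triptolide lists were nearest to 5 and 3 of the 27 ecdysone genes. They were nearest to 5 and 1 of the 33 RNA-binding genes and 0 and 2 of the 22 Dpp and activin genes. For the 25 BTB, GAF and insulator genes the counts were 2 and 2. Over all 13865 protein-coding genes they were 138 and 106. Several of the ecdysone and RNA-binding genes also had a member. These were Eip74EF, Eip75B, crol, ftz-f1, ps, msi and brat for a peak in 1 list, and Eip74EF, Hr38 and Syp for a peak in both. Whether the members differ from the regions that kept a peak was not tested. Members were nearest to 0 of 85 cytosolic ribosomal protein genes, 0 of 31 proteasome genes, 0 of 24 Toll and IMD genes, 0 of 19 small RNA pathway genes and 0 of 18 Hippo and planar polarity genes, which with so few genes allows shares of up to 4.32% for the first and up to 17.6% for the last.

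**Figure D5:**
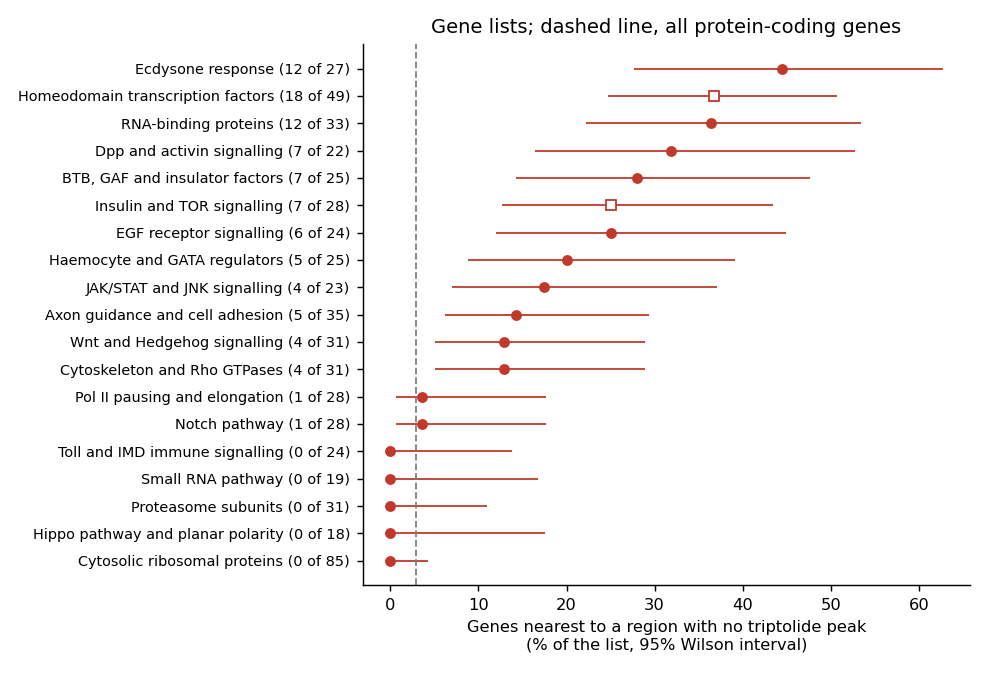
Share of the genes of each list nearest to a member (x axis, percent) with 95% Wilson intervals, and the count in brackets. Open squares are the 2 lists drawn up after the members were seen, and the dashed line is the 2.91% of all protein-coding genes. Ecdysone response genes stand at 44.4% and cytosolic ribosomal protein genes at 0.

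Gene length differed between lists and moved with some of these counts. The median gene length was 22280 bp in the ecdysone list, 37131 bp in the RNA-binding list and 1333 bp in the ribosomal protein list. Axon guidance and adhesion genes, with a median of 40368 bp, had 5 of 35 (14.3%), and Hippo and planar polarity genes, with 17235 bp, had 0 of 18. Its part in the counts was not tested.

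The steroid hormone ecdysone acts through the receptor EcR and a cascade of early genes, and members lay at 12 genes of this list. The member nearest to Eip74EF, an ETS transcription factor, at chr3L:17577416-17578396, had fold values of 6.85 and 7.40 in mock replicates 1 and 2, with its summit 1143 bp upstream of a TSS. Another Eip74EF region, chr3L:17576251-17577036, overlapped peaks of both triptolide lists. The region at the first TSS of the gene, chr3L:17619197-17619683, overlapped a peak of 1 triptolide list. E23, an ABC transporter, had 12.1 and 14.6 at chr2L:3354661-3355190, with the summit 73 bp upstream of the first TSS. Eip75B, a nuclear receptor, had 4 members, of which the highest, at chr3L:17999351-18000061, had 8.93 and 6.98 and lay 235 bp downstream of a TSS. The higher of 2 members at br, a BTB zinc-finger factor, had 5.57 and 7.93 at chrX:1621653-1622395. The other genes were crol, EcR, vri, ImpL2, Eip78C, Hr38, Hr4 and ftz-f1, and with a promoter of 500 bp on either side the count was 6 of 27 instead of 12.

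RNA-binding proteins act on splicing, localisation and translation of transcripts. Besides shep, Syp and cpo, the list held pum, a translational repressor, with fold values of 8.01 and 13.3 at chr3R:9226716-9227501 and a summit 271 bp upstream of a TSS. The other 8 were ps, mub, msi, brat, Imp, Rbp9, elav and sqd.

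Members in the Dpp pathway covered a ligand, a receptor, antagonists and nuclear factors. At dpp, the ligand of the BMP family (chr2L:2450747-2451404), fold enrichment was 15.8 and 16.7 with the summit 175 bp upstream of a TSS, the second highest value of all members in replicate 1. At sog, an extracellular BMP antagonist (chrX:15633280-15633784), it was 7.08 and 7.46. The nuclear factor gene shn had 3 members, the highest with 4.66 and 6.29, and Dad, an inhibitory Smad, had 2, the higher with 4.46 and 6.10 at 1672 bp downstream of a TSS. The receptor tkv, the ubiquitin ligase Smurf and cv-2, an extracellular BMP-binding protein, were the other genes. At cv-2 (chr2R:21379308-21379731) the values were low, 3.53 and 3.51, with the summit 46 bp upstream of the TSS.

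Transcription factors of the BTB family include proteins that bind GA repeats. The highest-ranked region at fru, which controls courtship (chr3R:18447071-18447792), had fold values of 8.06 and 6.57, and 2 further regions of fru had 8.21 and 5.78, and 3.72 and 6.89. At bab2, a regulator of leg and ovary development, the higher of 2 members had 5.85 and 6.42, and at psq, which itself binds GA repeats, the values were 6.24 and 6.43. The other genes with a member were br, rib, lolal and bab1. No member was nearest to Trl, the gene of GAF, or to ttk or lola of the same list. Promoter regions nearest to Trl overlapped a peak of 1 triptolide list and that at lola peaks of both. The gene ttk had a region of each kind. Homeodomain genes had 18 of 49 (36.7%), against 2.91% of all protein-coding genes. Regions with a peak in 1 and in both triptolide lists were nearest to 5 and 2 of these 49 genes. Fold values of the members were 9.69 and 9.18 at oc, 7.55 and 6.89 at ct and 5.22 and 6.02 at otp. At lbe they were 9.95 and 3.75, the widest gap between replicates of these 4.

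Receptor tyrosine kinase and insulin signalling were represented at several levels. In the EGF receptor list 6 of 24 genes (25.0%) had a member, against 2.91% of all protein-coding genes. The ETS activator pnt had 3, of which the highest, at chr3R:23314208-23314756, had fold values of 6.83 and 6.19. The inhibitors kek1 and sty had 6.57 and 7.15, and 4.18 and 4.34. The ligand spi had 4.66 and 6.91 in the higher of its 2 regions, and csw and aop were the others. Another promoter region of aop overlapped peaks of both triptolide lists. Median gene length was 11340 bp in the EGF receptor list and 4648 bp in the insulin list, against 2156 bp for all protein-coding genes. The part of length in the shares of both lists was not tested. In the insulin list 7 of 28 genes (25.0%) had a member, among them the transcription factor foxo with 5.36 and 7.63, the insulin-binding protein ImpL2 with 4.27 and 4.70, the receptor InR with 3.67 and 4.26 and the ligand Ilp6 with 3.57 and 5.63.

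Lists of blood cell development and stress signalling had shares of 20.0% and 17.4%, against 2.91% of all protein-coding genes. Their median gene lengths were 15513 and 7169 bp, against 2156 bp for all protein-coding genes. The part of length in these shares was not tested. Haemocyte and GATA regulators had 5 of 25 (20.0%). The FOG cofactor ush had fold values of 5.80 and 9.02 with the summit 51 bp downstream of a TSS, the zinc-finger gene peb had 7.58 and 9.91, the RUNX factor lz 6.30 and 11.5 and the GATA factor srp 7.62 and 7.23, and grn was the fifth. JAK/STAT and JNK signalling had 4 of 23 (17.4%), namely the cytokine upd3 with 6.63 and 6.09, Traf4 with 6.81 and 7.58, the TNF ligand egr with 5.81 and 9.67 and the Fos subunit kay with 4.40 and 6.63. Other promoter regions of srp, upd3 and kay overlapped a triptolide peak.

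Adhesion, Wnt and cytoskeletal lists had shares between 12.9% and 14.3%. In the axon guidance list the highest were unc-5, a Netrin receptor, with fold values of 4.45 and 6.15, and the cell surface receptor Dscam1 with 6.92 and 4.16, followed by NetA with 5.27 and 6.44 and caps with 3.81 and 3.71. Wnt and Hedgehog signalling had 4 of 31 (12.9%), the receptors fz with 6.38 and 10.2 and fz2 with 7.21 and 8.13, the Hedgehog receptor ptc with 6.29 and 7.86 and the kinase sgg with 4.87 and 8.40. The 4 of 31 cytoskeletal genes were Act5C with 7.08 and 7.95, the spectraplakin shot with 7.01 and 9.63, RhoL with 5.42 and 6.90 and Rho1 with 4.92 and 8.36. Other promoter regions of ptc, sgg and shot overlapped a triptolide peak. The Notch list had fng alone of 28, and the list of Pol II pausing and elongation had fs(1)h alone of 28, a bromodomain protein, with 4.43 and 9.82 in the higher of 2 regions.

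Some genes carried several separate members. Eip75B, Tlk, Mur2B and bun each had 4, and fru, shn, Lk6 and pnt each had 3. The 4 members at Eip75B, between chr3L:17971059 and chr3L:18063655, had fold values from 3.56 to 8.93 in mock replicate 1 and from 2.82 to 9.21 in replicate 2, with 3 of the summits downstream of a TSS. Those at Tlk, a protein kinase, had 3.89 to 4.86 in replicate 1 and 5.22 to 11.9 in replicate 2. The 4 at Mur2B and the 2 at br lay together between chrX:1616932 and chrX:1623520. At bun, a gene of the TSC22 family, the values were 3.60 to 4.58 and 3.84 to 8.23. Such members share a gene and are not independent of each other.

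Triptolide peaks lay close to some members without overlapping them. The median distance to the nearest triptolide peak was 5313 bp, and a peak lay within 100 bp of 6 members, within 500 bp of 44 (9.24%), within 1000 bp of 78 (16.4%) and within 5000 bp of 229 (48.1%). The 5 members nearest to one were at emc with 7 bp between them, Traf4 with 13 bp, fax with 36 bp, Alh with 44 bp and Lac with 51 bp. Of these, the region at emc, an inhibitory helix-loop-helix protein (chr3L:749111-749634), had mock fold values of 5.92 and 10.9, and the triptolide replicate 2 peak beside it had 4.10. At Traf4 (chr2L:4371651-4372194) the neighbouring peak was of triptolide replicate 1, with a fold of 5.56. On the other side of the limit, the smallest overlaps were 12 bp at CG4630 and at Sdb, 51 bp at ena, 91 bp at Ten-m and 124 bp at CG10348, and those regions are not members.

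The example genes of the study took different places. Traf4, cv-2 and vri had members, and at vri, a bZIP repressor of the circadian clock, the region chr2L:5306348-5306945 had fold values of 5.81 and 7.14 with its summit 1008 bp downstream of a TSS in an intron. Socs36E and betaTub60D were nearest to 0 of the 745 promoter regions. The Traf4 promoter was counted as divergent, with a TSS of lncRNA:CR45363 687 bp away.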

How the data were processed

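AGO2 ChIP-seq of Kc167 cells was analysed from 4 peak lists, 1 per immunoprecipitated sample; the 4 input samples were not analysed here. Adapters were cut by the authors with cutadapt, and reads were mapped on dm6 by Bowtie2 with a mapping quality of 20 or more. Duplicates were taken out with Picard, and MACS2 called narrow peaks in every replicate separately, with its input as control. The submitters' processing notes name cutadapt 1.10, Picard 2.11.0 and MACS2 2.1.1.20160309. The deposited score equals 10 times −log10 of the q-value, cut to a whole number. The deposited fold compares the immunoprecipitated signal at a summit with the background around it, as a ratio. The authors' −log10 p-values and −log10 q-values are given per peak, as is the deposited summit position in bases from the peak start. All deposited peaks were used. Peak calls keep no read depth, which is unknown here, and a peak just under the caller's threshold is lost.

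Genes and TSSs were taken from the BDGP6.54 annotation (18046 genes and 23401 distinct TSSs, transposable elements left out) and sequences from RefSeq Release 6; no peak ended beyond its chromosome. Overlap meant 1 bp or more. Percentiles were ranks by q-value within a list. Python 3.11.15 and numpy 2.4.6 were used, with 95% Wilson intervals and no test, since the rule used the peak calls themselves. The steps were tested on simulated peaks.

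Named are the 10 members of highest mean percentile, up to 4 genes of each list, the 5 highest divergent members, genes with 3 or more members, the 5 members and 5 other regions nearest to the limit of the rule, and the example genes of the study. The members and lists were chosen with earlier results of these data known. Alternatives left out each replicate, raised the mock threshold, equalised list lengths, required larger overlaps or wider gaps, and changed the promoter and TSS definitions.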

Additional observations from a re-analysis of the deposited data

How the results depend on the processing

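Of 96 values computed under an alternative, 84 stayed within the Wilson interval, the SD or the count ratio of 1.5 allowed, and 12 moved further. The GAF motif share and the counts of ecdysone and RNA-binding genes were added after seeing the data.

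Leaving out each replicate in turn gave 496 to 1047 members. The highest count was without mock replicate 1, when the 1919 peaks of replicate 2 stood alone. In these runs the share of summits within 250 bp ranged from 56.6% to 62.5%, the downstream share from 29.0% to 37.1%, the divergent share from 13.5% to 16.4%, the median GC content from 47.5% to 49.9% and the GAF motif share from 85.1% to 90.5%. The highest GC content was without mock replicate 2. The share of summits within 250 bp was 72.7% with a promoter of 500 bp on either side and 69.7% when the promoter ran downstream from its TSS for 1500 bp, as both drop distant regions. The divergent share was 10.9% with TSSs of protein-coding genes only, 7.35% with a partner within 500 bp and 11.1% with a partner of a protein-coding gene only. With mock peaks of −log10 q of at least 5, 412 members were left and the GAF motif share was 93.4%. With the 1055 top-scoring peaks of every list there were 475 members, and 405 of the 476 overlapped one of them. No triptolide peak within 500 bp left 432 members.

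No paired analysis was possible because the results come from no test. Having 2 replicates per treatment and the lack of read counts limit the precision: signal under the caller's threshold was not seen.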
